A study of Mus musculus with 2 samples.

Results

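The genes described here are 10 genes of the neutrophil line, chosen by name from the 22322 genes that the authors listed for liver macrophages of mice with colon carcinoma metastases. They are S100a8, S100a9, Retnlg and Csf3r, which mark mature neutrophils, Lcn2, Ltf, Ngp and Camp, which fill or accompany the specific granules, and Elane and Mpo, which fill the azurophil granules. All 10 were found in the files by Ensembl ID. They were picked with their values in both libraries known, so their values are a description and no test is made on them.

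The samples were 1 WT library and 1 FABP7 KO library. Both came from C57BL/6 mice, for which the methods give males aged 6 to 8 weeks, and in the KO mice Fabp7 was deleted in the whole body. A field of the labels calls the KO sample a knockdown, while its title and the paper call it a knockout. All mice had received 500000 MC38 cells, a mouse colon carcinoma line, into the spleen in 100 µl, and on day 10 the macrophages were taken from the metastatic liver with beads against F4/80, a surface protein that neutrophils lack. The sources used here do not say how many mice stand behind a library. There was no tumor-free group, and no difference between the genotypes has a replicate check.

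Neutrophils are short-lived phagocytes that the bone marrow releases in large numbers. Their granules are filled in a fixed order while the cell matures. Promyelocytes make the azurophil enzymes myeloperoxidase and neutrophil elastase, myelocytes then make the specific granule proteins, and the last stages make calprotectin, the calcium and zinc binding pair S100A8 and S100A9. The RNA of the early granule proteins is largely gone from the circulating cell, while RNA for calprotectin stays abundant, so the balance between these genes differs between marrow precursors and mature cells. Monocytes and some macrophages also make calprotectin and carry the G-CSF receptor, and hepatocytes make Lcn2 in inflammation. In bulk RNA, a change in the number of cells of a type and a change in RNA per cell cannot be told apart.

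Values are in FPKM, fragments scaled to gene length and library total. Levels can be set side by side between genes, and between libraries as shares of each total, which shift when other RNA changes. The files hold no fragment counts. In short genes, though, low values come in steps of 1 fragment. Of 122 such values in WT 87.7% lay within 0.15 of a whole fragment, as did 89.8% of 98 in KO, against 30% by chance at a depth not picked to fit them. From these steps the depth came to about 18050000 fragments in WT and 17900000 in KO. The fragments behind each value and the 95% counting intervals (exact Poisson for a level, exact Clopper-Pearson for a ratio) rest on this estimate. They cover counting error only and not the spread between mice. Fabp7 itself, the deleted gene, was at 354 FPKM in WT against 0.69 FPKM in KO, as the genotypes require. Macrophage markers were high in both libraries, with Adgre1, which encodes F4/80 and is named here for the selection, at 864 FPKM in WT against 925 FPKM in KO.

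The 30 bases from 40 to 11 before the RefSeq start of transcription are given for 1 or 2 genes of each stage, so that the stages can be set side by side: the calprotectin pair S100a8 and S100a9, the specific granule genes Ltf and Camp, and the azurophil gene Elane. They are on build GRCm38.p6, on the strand of each gene. The capitals mark ATAAA, a part of the TATA box motif TATAAA, chosen after the sequences were read. Only in S100a8 does a T stand before it, so the marked letters of Ltf and Camp are not TATAAA.
S100a8 (chr3:90669031-90669060, plus strand): agctttcctctATAAAagcagctgacactt
S100a9 (chr3:90695732-90695761, minus strand): atcttccccgagataaccatgtatctaaca
Ltf (chr9:111019252-111019281, plus strand): cccagcacagATAAAgggccccggggagag
Camp (chr9:109849467-109849496, minus strand): atcaggttcaggatgagaATAAAtgaggct
Elane (chr10:79886272-79886301, plus strand): ggttccagctataagtatggctgttaggta
On the gene's own strand, ATAAA stood in this window in 3 of the 10 members (S100a8, Ltf and Camp) and in 4.68% of 32851 promoter entries of the same table. Over the whole 300 bases of each entry, from 250 before to 50 after the start and on both strands, TTGCNNAA, a motif of the C/EBP type, stood in 5 members (S100a9, Retnlg, Lcn2, Ltf and Ngp) and in 10.8% of all entries. AGGAAG, a motif of the PU.1 and ETS type, stood in 7 members and 35.4% of entries. TATAAA, which holds the letters of ATAAA, stood in 2 members (S100a8 and S100a9) and 13.6%. These matches are letters in a window and not binding sites. Since ATAAA was chosen after the sequences were read, nothing is read from its share among the members. The windows of the specific granule genes Ngp and Lcn2, not printed here, held no ATAAA on the gene's own strand. S100a8 and S100a9 start 26.7 kb apart on chromosome 3, and Camp, Ngp and Ltf lie in a row on chromosome 9, with 570 kb between the first pair of starts and 599 kb between the second. These positions are RefSeq's, since the build behind the FPKM values was not stated.

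All 10 members had a higher value in the KO than in the WT library, as did 5418 of the 10770 genes reaching 1 FPKM in either library. For Elane and Mpo only about 1 and 9 fragments stand behind the KO value, and no difference was detectable. A gene was called higher when log2 of (KO + 1) over (WT + 1) was at least 1, which sets a size and tests nothing, among genes reaching 1 FPKM in either library. By this rule 6 members were higher and none was lower, while 2.21% of all 10770 genes so measured were higher, 2.95% lower and 5.16% either. Since the members were picked on these values, nothing is read from the difference between these shares. Of the others, Csf3r and Lcn2 fell short of the rule, and Elane and Mpo stayed under 1 FPKM in both libraries. Over all 10 members the median log2 ratio was 1.39, and over all measured genes it was 0.004.

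S100a9 (ENSMUSG00000056071), the larger partner of calprotectin, was at 4.31 FPKM in WT against 25.3 FPKM in KO, about 40 and 235 fragments. Its KO to WT ratio was 5.86 (counting interval 4.22 to 8.51), with a log2 ratio of 2.31. S100a8 (ENSMUSG00000056054), the smaller partner, was at 2.84 FPKM in WT against 13.6 FPKM in KO, from about 25 and 118 fragments. Its ratio was 4.80 (3.07 to 7.65), with a log2 ratio of 1.93. The intervals of the partners' ratios overlapped, and both stood far above 1. Among the 10770 genes, S100a9 had the 8th and S100a8 the 11th highest log2 ratio. The partners kept a similar balance, with S100a9 at 1.52 times S100a8 in WT and 1.85 times in KO.

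Retnlg (ENSMUSG00000022651), a secreted resistin-like protein of mature mouse neutrophils, was at 1.30 FPKM in WT against 4.22 FPKM in KO, about 14 and 45 fragments. Its ratio of 3.25 had a wide counting interval, 1.75 to 6.39, which overlapped those of both calprotectin genes. Its relatives in the resistin family were lower still. Retn and Retnlb were listed at 0 in both libraries, and Retnla, named with them after its values were seen, was at 0.37 FPKM in WT against 0.65 FPKM in KO.

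Csf3r (ENSMUSG00000028859), the receptor for G-CSF, had a smaller KO to WT ratio than the calprotectin genes. It was the highest member in both libraries, at 27.3 FPKM in WT against 51.3 FPKM in KO, about 1714 and 3197 fragments. Its ratio of 1.88 (1.77 to 2.0) lay below the intervals of S100a8 and S100a9 but inside that of Retnlg, from which it could not be told apart at this depth, and its log2 ratio of 0.89 missed the size rule. Csf3r was 3.82 times the summed calprotectin level in WT and 1.32 times in KO. For scale, Csf1r, the receptor that macrophages depend on, was 87.0 times Csf3r in WT and 61.8 times in KO. Of the 11 listed genes of G-CSF receptor signaling, none passed the size rule. Named after their values were seen, Csf3, the ligand, was listed at 0 in both libraries, Socs3, the feedback inhibitor, was at 2.94 FPKM in WT against 6.30 FPKM in KO, and the kinase Lyn was at 270 FPKM and 268 FPKM.

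**Figure D1:**
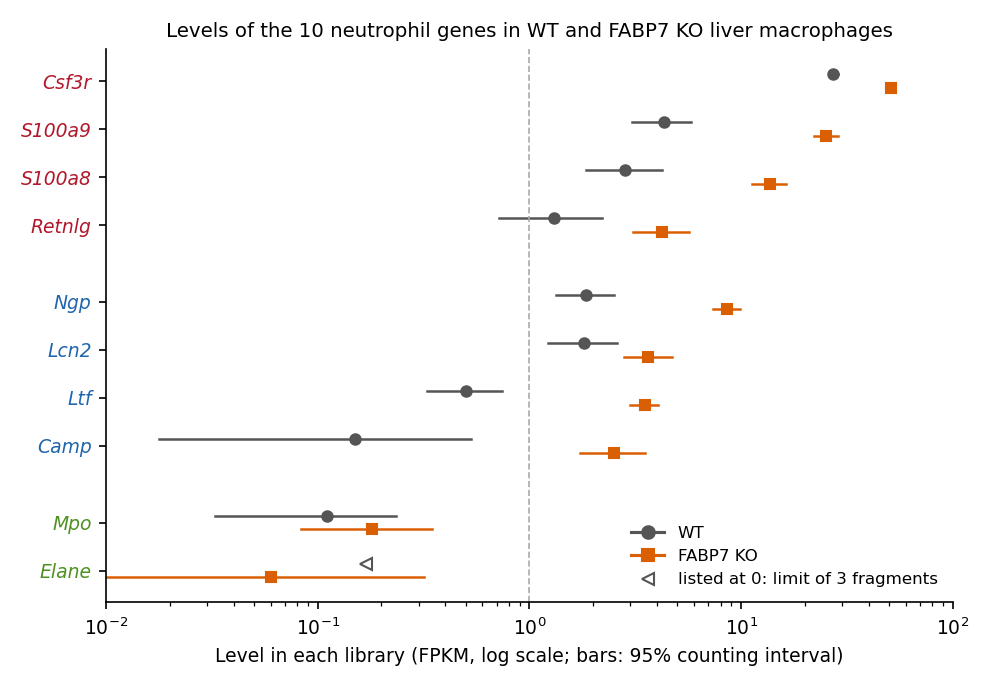
Level of each member in FPKM (x axis, log scale) in the WT (circles) and FABP7 KO library (squares), with 95% counting intervals (the bar of Elane is cut at the axis) and symbols colored by stage, mature above, specific granule in the middle and azurophil granule below. The KO value lies right of the WT value in every row but that of Elane. Elane was listed at 0 in WT, which a log axis cannot show. Its WT mark, an open triangle, stands at the upper limit of 0.17 FPKM, right of its KO value of 0.06 FPKM. Elane and Mpo lie left of the dashed line at 1 FPKM in both libraries.

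The specific granule genes had low values in WT and several times higher ones in KO. Ngp (ENSMUSG00000032484), neutrophilic granule protein, a relative of the cystatins and cathelicidins, was at 1.85 FPKM in WT against 8.56 FPKM in KO, about 41 and 187 fragments, a ratio of 4.63 (3.27 to 6.62). Ltf (ENSMUSG00000032496), lactoferrin, which withholds iron from bacteria, was at 0.50 FPKM in WT against 3.51 FPKM in KO, about 25 and 172 fragments. Its ratio was 7.02 (4.54 to 11.02). Camp (ENSMUSG00000038357), the precursor of the antimicrobial peptide CRAMP, was at 0.15 FPKM in WT against 2.50 FPKM in KO. Only about 2 fragments stand behind the WT value of Camp and 34 behind the KO value, so its ratio of 16.7 has an interval from 4.39 to 147. The intervals of these 3 genes overlapped each other and those of S100a8 and S100a9. On the log2 scale with 1 FPKM added, their ratios were 1.75, 1.59 and 1.61, below those of calprotectin. The added 1 FPKM outweighs the WT level of Ltf and Camp, and without it both have larger ratios than S100a9.

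Lcn2 (ENSMUSG00000026822), lipocalin 2, binds the siderophores by which bacteria collect iron. It was at 1.81 FPKM in WT against 3.65 FPKM in KO, about 30 and 60 fragments, a ratio of 2.02 (1.28 to 3.24). This interval lies just below that of Ngp and overlaps that of S100a8. Its log2 ratio of 0.73 missed the size rule. In WT, Lcn2 and Ngp had nearly the same level, and in KO Ngp was higher than Lcn2 beyond their counting intervals. Hepatocyte markers, beside which Lcn2 must be read, summed to more in KO, though not each of them was higher. Of 20 listed, 19 were measured and 5 passed the size rule upward. The summed level was 640 FPKM in WT against 1249 FPKM in KO. The largest part of the difference in the sum came from Trf, at 306 FPKM and 642 FPKM, followed by Alb, at 144 FPKM and 305 FPKM. Named after their values were seen, the markers with a lower value in KO were Hp (19.9 FPKM and 19.7 FPKM), Tat (4.45 FPKM and 3.89 FPKM) and Saa2 (0.72 FPKM and 0.09 FPKM). The part of hepatocyte RNA in the Lcn2 value was not tested.

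The azurophil granule genes were almost undetected in both libraries. Mpo (ENSMUSG00000009350), myeloperoxidase, which makes hypochlorous acid, was at 0.11 FPKM in WT against 0.18 FPKM in KO, about 5 and 9 fragments. Its ratio of 1.64 had an interval from 0.55 to 6.89, which holds both 1 and the ratio of S100a8. A difference was not detectable at this depth. Elane (ENSMUSG00000020125), neutrophil elastase, was listed at 0 in WT, which allows up to 0.17 FPKM (3 fragments), and at 0.06 FPKM in KO, about 1 fragment. No ratio is given for it.

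Set against each other by stage, the mature and specific granule genes moved in the same direction, and the azurophil genes were too low to compare. The 4 mature genes summed to 35.7 FPKM in WT against 94.4 FPKM in KO, 2.64 times as much, with Csf3r the largest part. The 3 mature genes other than Csf3r summed to 8.45 FPKM in WT against 43.1 FPKM in KO, 5.10 times as much. The 4 specific granule genes summed to 4.31 FPKM in WT against 18.2 FPKM in KO, 4.23 times as much, or 5.83 times without Lcn2. Relative to calprotectin, the specific granule genes made up 0.60 in WT and 0.47 in KO, and without Lcn2 0.35 and 0.37. Elane and Mpo together came to 0.11 FPKM in WT against 0.24 FPKM in KO, which is 0.015 and 0.0062 of the summed calprotectin level. These shares rest on about 5 and 10 azurophil fragments, no interval was computed for them, and no change between the libraries is read from them. So in level, both libraries held far more RNA of the late genes than of the earliest granule genes, while in ratio the mature and specific granule genes other than Csf3r and Lcn2 had overlapping counting intervals.

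**Figure D2:**
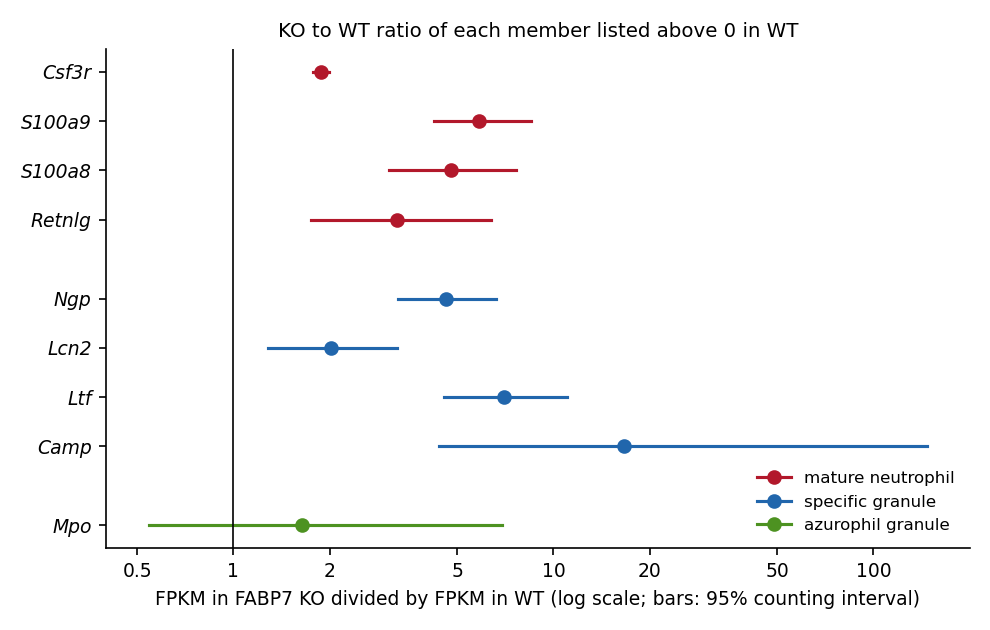
FPKM in FABP7 KO divided by FPKM in WT (x axis, log scale) for the 9 members above 0 in WT, with 95% counting intervals, colored by stage. Csf3r at 1.88 and Lcn2 at 2.02 lie left of S100a8 (4.80), S100a9 (5.86), Ngp (4.63) and Ltf (7.02), and the interval of Mpo spans 1.

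The order of levels was much the same in the libraries but was resolved only in KO. In WT, Csf3r came first, followed by S100a9, S100a8, Ngp, Lcn2, Retnlg, Ltf, Camp, Mpo and Elane, and apart from Csf3r no gene differed from the next beyond the counting intervals. In KO, Csf3r, S100a9, S100a8 and Ngp each stood above the next gene beyond these intervals. Retnlg, Lcn2, Ltf and Camp followed without a gap, and Mpo and Elane came last, below Camp. Against all genes above 0 in a library, S100a9 moved from percentile 44.5 in WT to 80.9 in KO and S100a8 from 38.4 to 68.5. Even so, Adgre1 was 201 times S100a9 in WT and 36.6 times in KO.

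**Figure D3:**
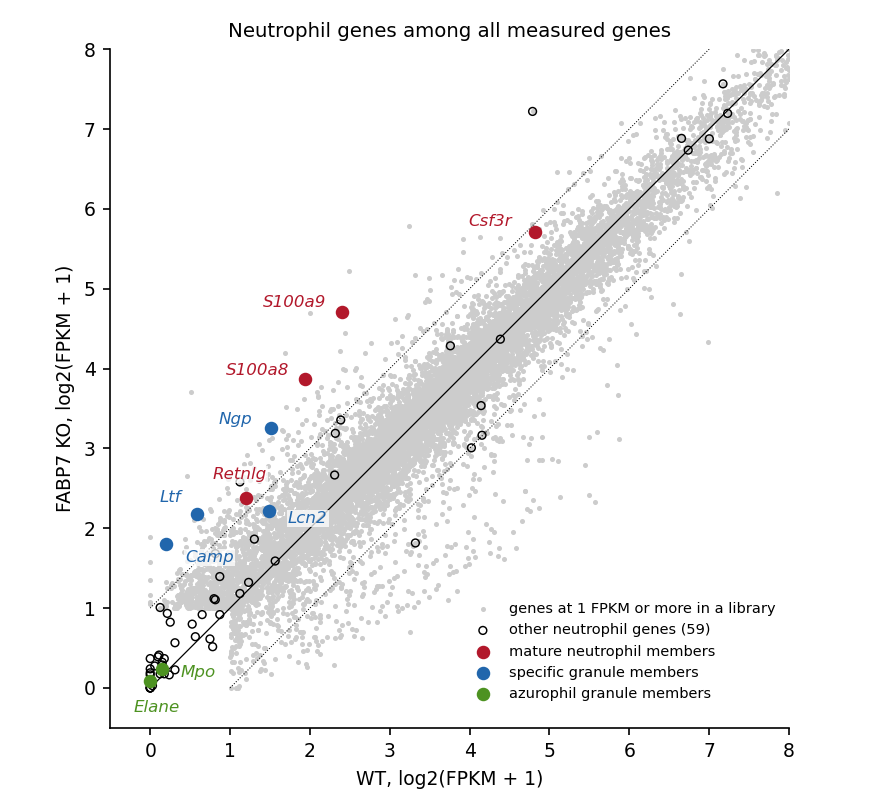
log2(FPKM + 1) in WT (x axis) and in FABP7 KO (y axis) for genes at 1 FPKM or more in a library (grey), the 10 members (filled, labeled) and 59 other neutrophil genes (open), with axes ending at 8, the line of equality and dotted lines at 2-fold. S100a9, S100a8, Ngp, Ltf, Camp and Retnlg lie above the upper dotted line, while most open circles lie between the dotted lines.

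Other genes on the neutrophil lists did not move as a block with the members, among those measured at 1 FPKM or more. Of 59 other neutrophil genes on 3 lists, 31 were measured at 1 FPKM or more, 2 of them were higher by the size rule and 2 lower, and their median log2 ratio was 0.28. These 31 include abundant genes that macrophages also use, such as Lyz2, Ctsc and Cybb. They leave out scarcer ones such as Ly6g, Cxcr2, Cd177 and Padi4, so the median says little of genes restricted to neutrophils. The scarcer genes leaned upward more than the abundant ones. At 10 FPKM or more, 7 of 17 had a higher value in KO, between 1 and 10 FPKM 13 of 14 did, and under 1 FPKM 18 of 28 did. Of the rest under 1 FPKM, Ly6g, Il1r2, Trem1 and Clec4e had a lower value in KO, and the others were equal in both libraries. Those higher were Il1b, which encodes IL1β and which macrophages also make, at 26.7 FPKM in WT against 148 FPKM in KO, and Mmp9, the gelatinase of the late granules, at 1.18 FPKM and 4.98 FPKM, a ratio with an interval from 3.21 to 5.55. Those lower were Trem3, an activating receptor of myeloid cells, at 9.0 FPKM in WT against 2.52 FPKM in KO, and Acod1, which makes itaconate, at 15.3 FPKM and 7.04 FPKM.

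The scarce neutrophil genes named here, all under 1 FPKM, did not all have a higher value in KO. They were picked after their values were seen. Cd177, Mmp8, Itgb2l and Olfm4 are on the list of specific and gelatinase granule genes, and the others on that of mature neutrophil genes. Among all 28 other neutrophil genes under 1 FPKM, 18 had a higher value in KO. Ly6g, the surface protein by which mouse neutrophils are sorted, was at 0.18 FPKM in WT against 0.12 FPKM in KO, about 3 and 2 fragments, with a ratio interval from 0.056 to 5.87. Neither of the next 2 markers was higher in KO. Stfa2l1, a stefin with near copies that can share its reads, was at 0.13 FPKM in both. Il1r2, the decoy receptor for IL1, was at 0.24 FPKM and 0.17 FPKM, about 6 and 4 fragments. Other genes of these lists had a higher value in KO. Cxcr2, the chemokine receptor that draws neutrophils into tissue, was at 0.16 FPKM in WT against 0.91 FPKM in KO, about 9 and 50 fragments, an interval from 2.73 to 12.96. Cd177, a surface and granule protein, was at 0.08 FPKM and 0.33 FPKM (1.30 to 16.6), and Padi4, which citrullinates histones in extracellular traps, at 0.07 FPKM and 0.31 FPKM (1.2 to 23.9). Mmp8, the neutrophil collagenase, was at 0.57 FPKM and 0.89 FPKM, with an interval from 0.93 to 2.71. G0s2 was at 0.19 FPKM and 0.77 FPKM (1.09 to 22.3) and Itgb2l at 0.04 FPKM and 0.21 FPKM (1.21 to 51.5). Olfm4 was listed at 0 in WT and at 0.18 FPKM in KO, about 9 fragments, and no ratio is given for it. Lower values in KO were found for Trem1, at 0.72 FPKM and 0.43 FPKM (0.34 to 1.02), and Clec4e, at 0.68 FPKM and 0.53 FPKM (0.44 to 1.37). Of the named genes with a ratio, Cxcr2, Padi4 and G0s2 of the mature list differed upward beyond counting error. Cd177 and Itgb2l of the granule list did so too. For Ly6g, Stfa2l1, Il1r2, Mmp8, Trem1 and Clec4e no difference was detectable.

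Several genes on the neutrophil lists that macrophages also use had levels far above any of these markers. Lyz2, lysozyme, was at 1387 FPKM in WT against 2631 FPKM in KO, Wfdc17 at 726 FPKM and 1107 FPKM, and the formyl peptide receptor Fpr1 at 249 FPKM and 301 FPKM. Cybb, the catalytic subunit of the phagocyte oxidase, was at 456 FPKM and 425 FPKM.

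Of the other precursor genes, those specific to the early granulocyte were scarce, while Ctsc and Srgn, which macrophages also use, were abundant. Of 14 other azurophil granule and promyelocyte genes, 5 were measured at 1 FPKM or more and none passed the size rule in either direction. Ctsg, Bpi and Prss57, which encode azurophil granule proteins, were listed at 0 in both libraries. The protease inhibitor Serpinb1a was at 0.09 FPKM in WT against 1.01 FPKM in KO, about 3 and 35 fragments (3.71 to 59.8), and the stem cell factor receptor Kit at 0.76 FPKM and 2.21 FPKM (2.21 to 3.85), both named after their values were seen. Prtn3, proteinase 3, was at 0.11 FPKM and 0.22 FPKM, about 2 and 4 fragments. The transcription factors of granule formation Gfi1 and Cebpe were at 0.02 FPKM in both and at 0.09 FPKM and 0.13 FPKM. Myb was at 0.13 FPKM and 0.29 FPKM, about 9 and 19 fragments (0.92 to 5.34), and Cd34 at 0.74 FPKM and 1.17 FPKM (1.003 to 2.49). Fcnb and Ms4a3 were listed at 0 in WT. In KO they were at 0.29 FPKM and 0.12 FPKM, about 6 and 2 fragments, and no ratio is given for them. All of these were named after their values were seen. Ctsc, the cathepsin that activates elastase and its relatives, was at 2082 FPKM in WT against 1748 FPKM in KO, and Srgn, the proteoglycan that packs granule proteins, at 149 FPKM and 146 FPKM.

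**Figure D4:**
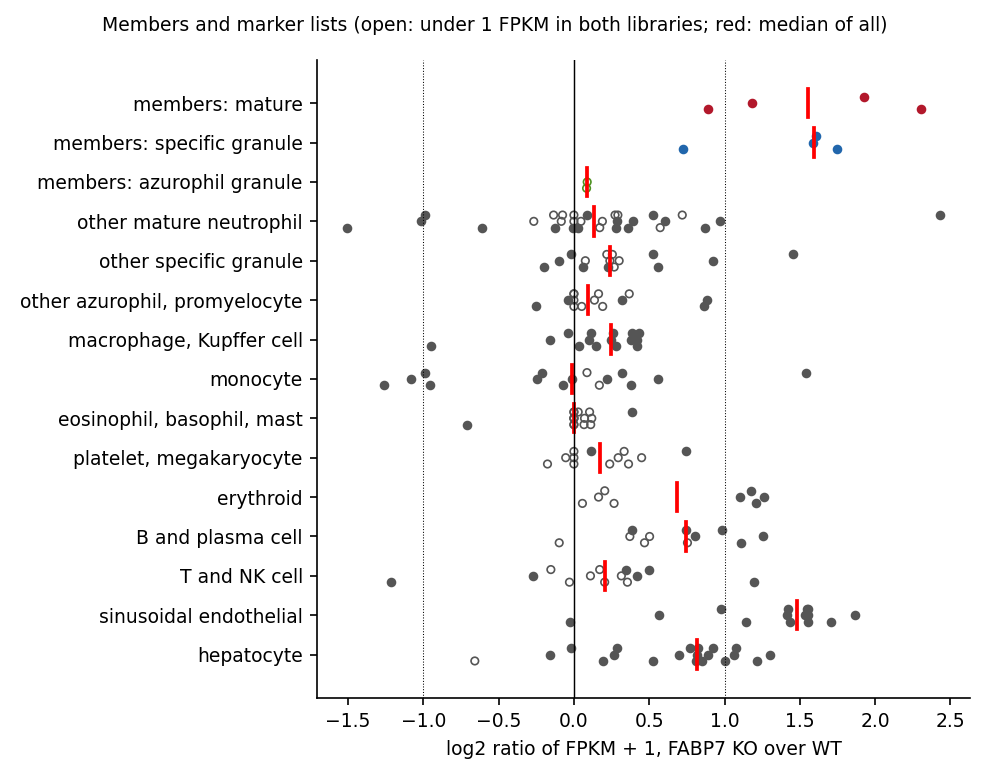
Each gene's log2 ratio of KO to WT, with 1 FPKM added (x axis) (points, open where under 1 FPKM in both libraries) of the 3 stages of members and 12 marker lists (rows), with the median of all points (red) and dotted lines at 2-fold. The members' mature and specific granule medians lie at 1.56 and 1.60, the azurophil median at 0.09 and the other neutrophil lists between 0.09 and 0.24.

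Markers of other cells moved in the same direction as the members in several lists, and their part in the members' values was not tested. Of 14 sinusoidal endothelial markers 11 were higher by the size rule, with a median log2 ratio of 1.48 and a summed level of 173 FPKM in WT against 343 FPKM in KO. The 4 measured erythroid markers were all higher (summed level 25.9 FPKM and 65.2 FPKM), as were 2 of 6 measured B and plasma cell markers (14.1 FPKM and 34.6 FPKM). Monocyte markers were mixed, with 1 higher and 2 lower of 13 measured, and a summed level of 1474 FPKM in WT against 866 FPKM in KO. Most of the difference in the sum came from Plac8, at 908 FPKM and 427 FPKM. Ms4a4c was at 167 FPKM and 69.1 FPKM, and Nr4a1, the marker that was higher, at 14.1 FPKM and 42.9 FPKM. Of 15 eosinophil, basophil and mast cell markers, 2 were measured at 1 FPKM or more and 7 were listed at 0 in both libraries, among them the granule proteins Prg2 and Epx. Of 12 platelet markers, 2 were measured and neither passed the size rule. None of the 15 macrophage markers passed it either, with a median of 0.25.

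The genes nearest to calprotectin in ratio were sought among abundant genes that are not members, which leaves out most of the other neutrophil genes and members such as Ngp. Predicted genes (Gm and Rik names) and immunoglobulin and T cell receptor segments were left out too. Among 5906 such genes at 10 FPKM or more in a library, the 8 whose log2 ratio lay closest to the calprotectin mean of 2.12 were Sh2b2 (1.99), Oit3 (1.87), Mup3 (1.85), Ccl3 (1.85), Bcl6 (1.82), Il1b (2.43), Clec4g (1.70) and Klf4 (1.69). Mup3 has near copies that can share its reads. Likeness here is the distance between 2 ratios from the same 2 libraries and says nothing of shared function.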

How the data were processed

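Poly(A) RNA of F4/80-selected liver macrophages gave 1 library per genotype, grouped by the labels. The authors deposited FPKM values with 2 decimals for 22322 genes, and the joint table and the single tables held the same values. Of the tools, Bowtie2 2.2.8 and TopHat2 2.1.1 stand in the submitters' processing notes, without their roles. The sources used here do not give the genome build, annotation or counting tool. Symbols were matched by Ensembl ID for 22267 genes, and 55 had none.

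The log2 ratio used a pseudocount of 1 FPKM and a floor of 1 FPKM in at least 1 library. With 1 library per genotype no test was made. Depth was estimated from values of 0.02 to 0.6 FPKM in genes of 300 to 900 bases with 1 transcript in GENCODE, and fragments used the longest protein-coding transcript. Where that differs from the authors' length, as it may for genes with several transcripts, the intervals shift. The size rule, the depth estimate and the counting interval of a ratio were tested on simulated data, and the other steps were not.

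The members, the 20 other lists and the rule for naming genes (all members; per list, up to 4 genes past the size rule and 3 with the highest mean; 8 genes nearest in ratio) were chosen with earlier results of these data known. Promoter sequences came from RefSeq for all 10 members. Python 3.11.15, NumPy 2.4.6, pandas 2.3.3, SciPy 1.17.1 and Matplotlib 3.10.9 were used.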

Additional observations from a re-analysis of the deposited data

How the results depend on the processing

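The direction of the 10 members could not turn under these settings, so it is no check of them. A pseudocount of 0.1 FPKM leaves the sign of a ratio unchanged. KO was also rescaled by the median gene (factor 0.974) or by totals leaving out mitochondrially encoded, erythroid and hepatocyte genes (0.965). Dividing KO by either factor only raises it. A pseudocount of 0.1 moved the median log2 ratio of the specific granule genes from 1.60 to 2.37 and of the azurophil genes from 0.086 to 0.55 (mature genes from 1.56 to 1.92), since less is added to low WT values, and the number of higher genes became 562. Csf3r and Lcn2 remained short of the size rule there (0.91 and 0.97). With a floor of 5 FPKM, 143 genes were higher, with 1 specific granule gene (Ngp) instead of 3 and 2 mature genes instead of 3 (without Retnlg), since the others lie below it. With a size rule of 1.5, 50 genes were higher and 139 lower, and Retnlg dropped out. Without Csf3r the mature median was 1.93. Of 30 values of members under other settings, 25 stayed within their counting intervals and 5 moved, all with the pseudocount of 0.1. Of 98 medians of the other lists, 87 shifted by less than 0.25 and 2 changed sign, the other azurophil genes (-0.14) and the protease inhibitors (-0.11) with a floor of 5 FPKM. Depth limits Mpo, Elane and the WT value of Camp most, each with fewer than 10 fragments. No library could be left out with 1 per genotype. No paired analysis was possible because each genotype has 1 library.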

Other observations

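The other S100 genes did not share the ratio of calprotectin, with 1 exception. Of 16 family members, 9 were measured at 1 FPKM or more and 3 were higher by the size rule. Besides the calprotectin pair this was S100a16, at 0.82 FPKM in WT against 4.16 FPKM in KO, about 17 and 84 fragments, a ratio with a counting interval from 2.93 to 8.95. S100a1 was at 25.3 FPKM and 33.6 FPKM, S100a13 at 15.8 FPKM and 14.4 FPKM, and S100a6, named after its values were seen, at 8.53 FPKM and 5.86 FPKM. S100a1 was thus the highest S100 gene in both libraries. Of 12 receptors and partners known to bind the members' secreted products, Cd14 alone passed the size rule, at 49.0 FPKM in WT against 100.0 FPKM in KO, while Tlr4, the signaling receptor for calprotectin, named after its values were seen, was at 45.1 FPKM and 54.8 FPKM and Lrp1, a receptor for lactoferrin, at 196 FPKM and 242 FPKM.

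Among 16 neutrophil chemoattractants and their receptors, 8 were measured and Cxcl12, which retains neutrophils in marrow, was higher, at 4.51 FPKM in WT against 12.7 FPKM in KO. Fpr2 was at 127 FPKM and 117 FPKM, and Alox5ap, a partner in leukotriene synthesis, at 105 FPKM and 64.8 FPKM. Among 10 transcription factors of the granulocyte line, Klf4, better known from monocytes, was higher, at 2.80 FPKM and 11.3 FPKM, while Spi1 was at 227 FPKM and 243 FPKM and Irf8 at 77.9 FPKM and 75.3 FPKM. Among 9 inhibitors and activators of granule proteases, Serpina3g, which has near copies that can share its reads, was lower, at 553 FPKM and 246 FPKM, and none was higher. Of 13 T and NK cell markers, 6 were measured, with 1 higher (Icos) and 1 lower (Gzmb), and all 20 listed cell division genes were lower, with a median log2 ratio of -2.37.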
